A study of Mus musculus with 10 samples.

Results

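The p53 target genes described here are Cdkn1a, Mdm2, Ccng1, Btg2, Phlda3, Gdf15, Bax, Trp53inp1, Sesn2 and Perp, 10 genes chosen by name, and each probe set whose annotated symbol was one of them was taken. Of these 10 genes, 8 were found, with 16 probe sets among the 45037 probe sets tested. Gdf15 and Bax had no probe set under their names in the annotation used and were not analysed here. Of the 16 probe sets, 15 exceeded the table's median (4.33 on the log2 scale) in at least 2 arrays, and the remaining one, a dim probe set of Mdm2, is given as a value.

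p53 is a transcription factor that is stabilised by DNA damage and other stresses and then switches on genes that stop the cell cycle, repair damage or start cell death. Its best known target is Cdkn1a, which encodes p21, an inhibitor of the cyclin-dependent kinases that drive the cell cycle. Another target, Mdm2, encodes the ubiquitin ligase that sends p53 for degradation, so the pathway limits itself. In liver, p21 is known as a brake on hepatocyte division, for example after partial removal of the organ, and Cdkn1a and Btg2 can also be induced without p53.

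RNA came from livers of male C57BL/6 NHsd mice and was hybridised to Affymetrix whole-genome mouse arrays, which read each transcript by a probe set, a group of short probes toward its 3′ end. One group received phosphate-buffered saline (PBS, 2 arrays). The other groups received lipid nanoparticles at 1.5 mg/kg through the tail vein, loaded either with a control siRNA (4 arrays) or with siRNAs against all Rab5 genes (4 arrays). Rab5 proteins are small GTPases of early endosomes, and all livers were taken at day 5. The titles call the control a scrambled RNA and the series' design text calls it luciferase siRNA. PBS livers received no nanoparticles, and no second set of Rab5 siRNAs was among the groups, so loss of Rab5 and unrelated actions of its siRNAs cannot be told apart. Livers are numbered in the titles, but separate mice are not stated, and the p-values cover only the spread among these arrays. In whole liver, a change in the number of cells of a type and a change of RNA per cell cannot be told apart either.

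The targeted genes fell as the labels say. Rab5a was 8.67 ± 0.228 (SD, n = 4) with control siRNA and 6.86 ± 0.402 (SD, n = 4) with Rab5 siRNA, and Rab5c was 9.21 ± 0.155 and 7.21 ± 0.159 (SD, n = 4 each). Rab5b was dim in both groups, at 4.34 ± 0.156 and 4.10 ± 0.246 (SD, n = 4 each), with a difference of -0.24 (adjusted p = 0.273, limma). Array medians lay between 4.29 and 4.37. On the first principal component Rab5 siRNA replicate 1 stood at 24.1, the other Rab5 siRNA arrays between 42.2 and 52.8, and all control arrays below 0. The difference between 3′ and 5′ probe sets of Gapdh, a measure of RNA integrity, was highest in the arrays numbered 2 of each group (2.58, 2.86 and 2.67, against 2.15 to 2.38 elsewhere). The same difference for actin was lower in all Rab5 siRNA arrays (2.59 to 2.75) than in all control siRNA (2.84 to 3.23) and PBS arrays (2.83 and 3.13), and its part in the results was not tested.

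Part of the set rose with Rab5 siRNA and part did not. Against control siRNA, 6 of the 16 probe sets rose and 0 fell (limma over all 45037 probe sets, Benjamini-Hochberg adjusted p under 0.05), while 6.21% of all probe sets rose and 4.74% fell (10.9% in all). These 6 probe sets belong to 4 genes, Cdkn1a, Btg2, Phlda3 and Perp. Counting each gene by its probe set with the highest mean, 4 of 8 rose, against 8.62% of all genes (14.6% changed in either direction). The members' probe sets had a median difference of 0.37 on the log2 scale, and that of all probe sets was -0.03. The 4 Rab5 siRNA arrays lay above all 4 control siRNA arrays for 7 of the 16 probe sets, which was the case for 7.6% of all probe sets. They lay below all controls for 0 of the 16 and for 7.81% of all probe sets.

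**Figure D1:**
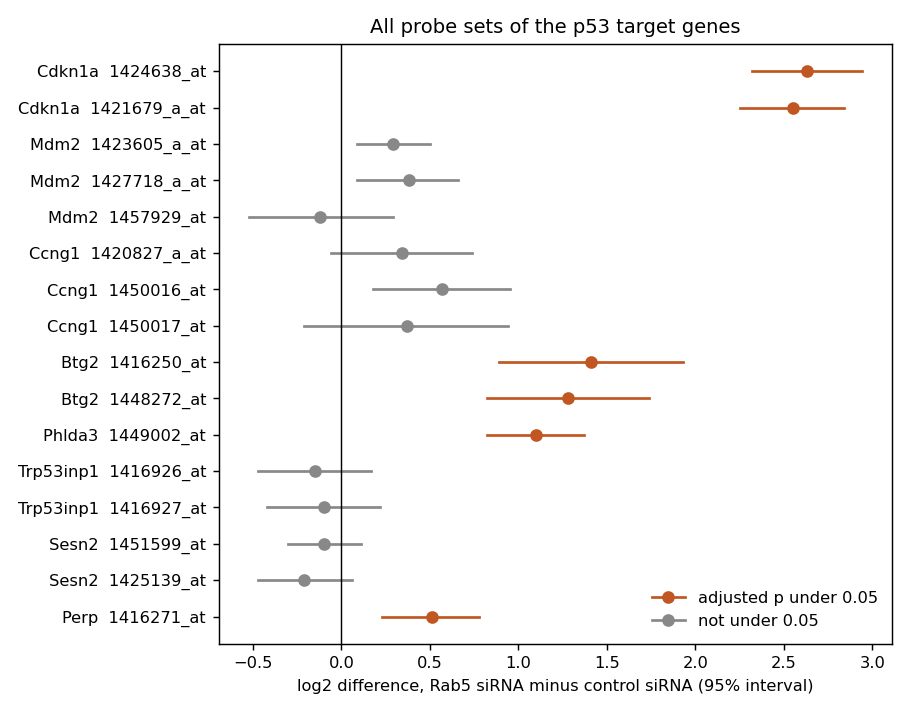
Log2 difference between Rab5 siRNA (n = 4) and control siRNA (n = 4) for each of the 16 probe sets, with its 95% interval from limma; orange marks an adjusted p under 0.05. The 2 Cdkn1a probe sets lie at 2.63 and 2.55, Btg2, Phlda3 and Perp follow between 0.51 and 1.41, and the probe sets of Mdm2, Ccng1, Trp53inp1 and Sesn2 did not pass.

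Cdkn1a, the gene of p21, showed the largest rise of the set. Its brighter probe set, 1424638_at, read 7.54, 7.14, 7.21 and 6.69 in control siRNA replicates 1 to 4. The same probe set read 9.76, 9.95, 9.76 and 9.64 in Rab5 siRNA replicates 1 to 4. PBS livers read 8.21 and 8.18. The 3 groups did not overlap: control siRNA livers were lowest, PBS livers lay between, and Rab5 siRNA livers were highest. Rab5 siRNA exceeded control siRNA by 2.63 on the log2 scale (SE 0.147, adjusted p = 6.89e-08, limma, n = 4 each), a 6.19-fold difference with a 95% interval of 4.98 to 7.69. By size of rise it ranked 17 of the 45037 probe sets. The other probe set, 1421679_a_at, differed by 2.55 (SE 0.138, adjusted p = 6.89e-08, limma), so both gave nearly the same size. Across all 19 alternative settings the difference at 1424638_at stayed between 2.48 and 2.77.

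Cdkn1a lies on mouse chromosome 17 (29090979 to 29100722, GRCm38.p6), and RefSeq gives it more than 1 transcription start. The window around the upstream start, from 250 bases before it to 50 after, holds a 20-base match to the p53 consensus site with 1 mismatch. Ccng1 holds a match with 1 mismatch as well. The search took the p53 consensus, a pair of 10-base elements with no spacer and the core C and G kept in each, on both strands; it was written with these windows in view. Such a match with at most 1 mismatch was present in 22 of 32841 windows (0.067%). The matches of Cdkn1a and Ccng1 are shown with the 20 bases in capitals, on the gene's strand, from RefSeq at GRCm38.p6.
Cdkn1a, chr17:29090888-29090987 (plus strand): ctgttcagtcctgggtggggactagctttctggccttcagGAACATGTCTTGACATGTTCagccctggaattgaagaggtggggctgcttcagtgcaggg
Ccng1, chr11:40755422-40755521 (minus strand): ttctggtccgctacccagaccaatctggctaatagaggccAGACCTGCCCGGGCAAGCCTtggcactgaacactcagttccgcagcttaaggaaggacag
The Cdkn1a match begins 51 bases before its start, and the Ccng1 match begins 195 bases before. The windows of Mdm2, Btg2, Phlda3 and Sesn2, and that of the other Cdkn1a start, had no match with at most 3 mismatches, which 1.38% of all windows had. A match describes letters only and says nothing of binding.

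Btg2 and Phlda3, both on chromosome 1, rose as well. Btg2 encodes an antiproliferative protein that recruits the deadenylase complex shortening mRNA tails. Its probe set 1416250_at read 7.25, 6.59, 7.61 and 6.96 in control siRNA replicates 1 to 4 and 7.74, 8.56, 8.78 and 8.98 in Rab5 siRNA replicates 1 to 4. PBS livers, at 7.25 and 6.85, lay within the control siRNA range. The groups did not overlap, although Rab5 siRNA replicate 1, at 7.74, was close to the highest control, at 7.61. The difference was 1.41 (SE 0.244, adjusted p = 0.0012, limma), 2.66-fold with a 95% interval of 1.86 to 3.82, and 1.28 (SE 0.215, adjusted p = 0.000959, limma) at 1448272_at.

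Phlda3 encodes a small protein that keeps the kinase Akt from the membrane and so dampens growth signals. It read 6.11, 6.29, 6.04 and 5.74 in control siRNA replicates 1 to 4. In Rab5 siRNA replicates 1 to 4 it read 7.02, 7.29, 7.31 and 6.94, and in PBS livers 5.67 and 5.60. Every Rab5 siRNA liver was above every control siRNA liver, and the PBS livers were lowest. The difference of 1.10 (SE 0.127, adjusted p = 4.04e-05, limma) was 2.14-fold, with a 95% interval of 1.77 to 2.58.

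Perp encodes a membrane protein of desmosomes that is also known as a p53 effector in cell death. It read 8.83, 9.40, 9.38 and 9.48 in control siRNA replicates 1 to 4 and 9.74, 9.71, 9.79 and 9.87 in Rab5 siRNA replicates 1 to 4. PBS livers read 9.48 and 9.37, level with the 3 higher controls. The groups did not overlap, and control siRNA replicate 1 was the low one. The difference was 0.51 (SE 0.131, adjusted p = 0.0201, limma), 1.42-fold with a 95% interval of 1.17 to 1.72. The call ended without Rab5 siRNA replicate 3 (0.50, adjusted p = 0.0531) and without Rab5 siRNA replicate 4 (0.47, adjusted p = 0.0583). It also ended without the arrays numbered 2 of all groups (0.57, adjusted p = 0.0819).

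**Figure D2:**
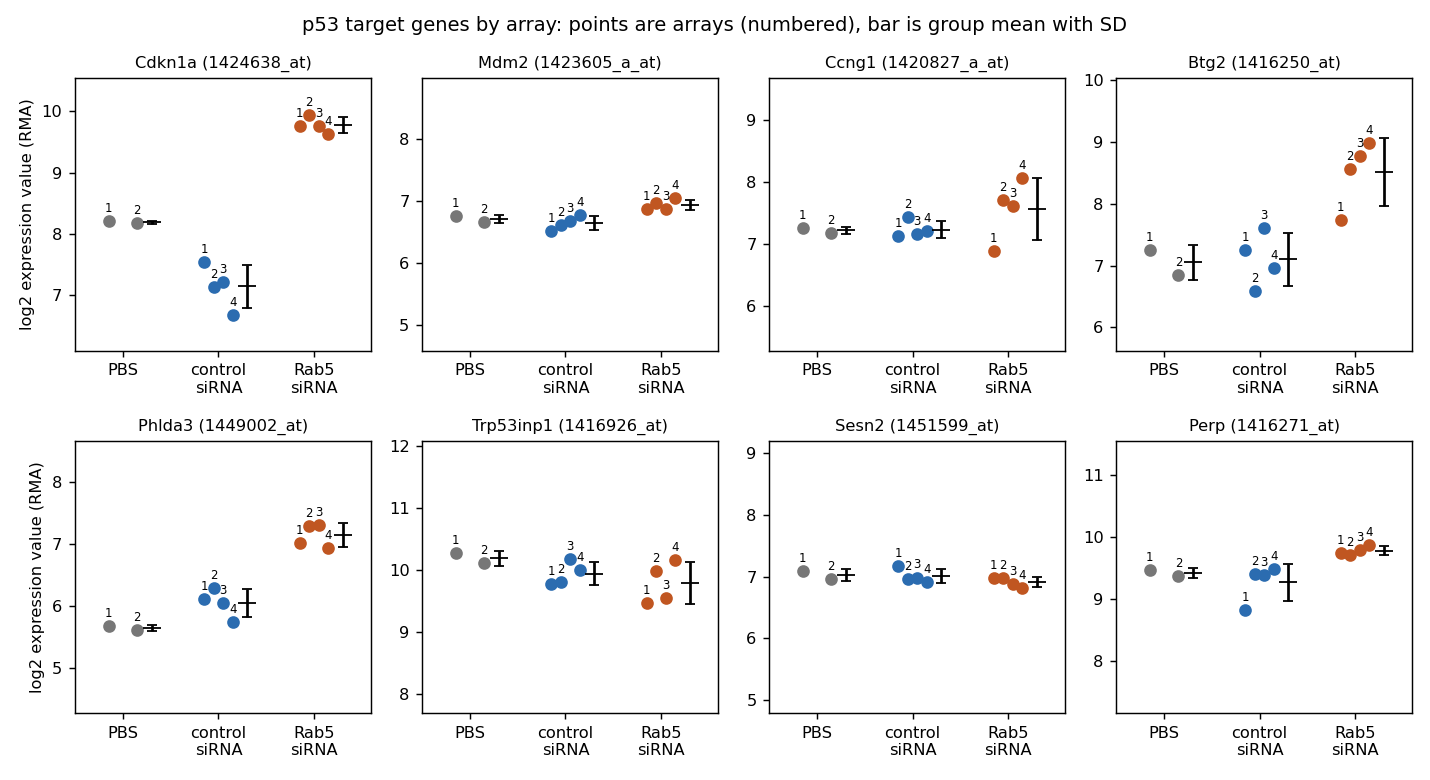
Log2 expression value of each array for the 8 measured genes at the probe set with the highest mean, by group (PBS n = 2, control siRNA n = 4, Rab5 siRNA n = 4); numbers are replicate numbers and bars are group means with SD. The Cdkn1a groups separate into 3 levels, Phlda3 and Btg2 are higher in Rab5 siRNA livers, and Sesn2 and Trp53inp1 overlap.

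Mdm2, the ligase that limits p53, showed small differences that did not pass. Its brightest probe set, 1423605_a_at, read 6.51, 6.62, 6.68 and 6.77 in control siRNA replicates 1 to 4. In Rab5 siRNA replicates 1 to 4 it read 6.87, 6.96, 6.87 and 7.05, and in PBS livers 6.76 and 6.66. All Rab5 siRNA livers were above all others, but the difference was only 0.29 (SE 0.0962, adjusted p = 0.0677, limma), 1.22-fold with a 95% interval of 1.06 to 1.41. With the filter on low values it passed (adjusted p = 0.0423, limma), as it did with 1 probe set per gene (adjusted p = 0.0369, limma). Probe set 1427718_a_at differed by 0.38 (SE 0.132, adjusted p = 0.089, limma), and the dim 1457929_at by -0.12 (SE 0.189, adjusted p = 0.781, limma).

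Ccng1 encodes cyclin G1, an atypical cyclin that binds a phosphatase acting on Mdm2. Its brightest probe set, 1420827_a_at, read 7.13, 7.44, 7.16 and 7.21 in control siRNA replicates 1 to 4, and 7.27 and 7.19 in PBS livers. In Rab5 siRNA replicates 1 to 4 it read 6.89, 7.71, 7.62 and 8.07. Replicate 1 was thus below every control and the other 3 above every control. Over all arrays the difference was 0.34 (SE 0.186, adjusted p = 0.301, limma), with a 95% interval of -0.06 to 0.74. Without Rab5 siRNA replicate 1, all 3 Ccng1 probe sets passed: 1420827_a_at at 0.57 (adjusted p = 0.00746, limma), 1450016_at at 0.78 (adjusted p = 0.00094, limma) and 1450017_at at 0.70 (adjusted p = 0.0218, limma). Without Rab5 siRNA replicate 4 the differences shrank, to 0.18 at 1420827_a_at (adjusted p = 0.645, limma), 0.44 at 1450016_at (adjusted p = 0.179, limma) and 0.09 at 1450017_at (adjusted p = 0.886, limma). With all arrays, 1450016_at stood at 0.57 (SE 0.181, adjusted p = 0.0605, limma) and 1450017_at at 0.37 (SE 0.270, adjusted p = 0.472, limma).

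Sesn2 and Trp53inp1, both on chromosome 4, did not pass. Sesn2 encodes a leucine sensor that restrains the growth kinase complex mTORC1. At 1451599_at it read between 6.92 and 7.17 in control siRNA livers, between 6.81 and 6.98 in Rab5 siRNA livers, and 7.09 and 6.96 in PBS livers. The groups overlapped, and the difference was -0.10 (SE 0.0969, adjusted p = 0.623, limma) with a 95% interval of -0.30 to 0.11, which leaves out a rise of the size seen for Perp or Phlda3. Its dimmer probe set differed by -0.21 (SE 0.126, adjusted p = 0.368, limma). Trp53inp1 encodes a nuclear and autophagy protein that promotes p53 phosphorylation. At 1416926_at it read between 9.78 and 10.17 in control siRNA livers and 9.47, 9.98, 9.55 and 10.16 in Rab5 siRNA replicates 1 to 4. The difference was -0.15 (SE 0.151, adjusted p = 0.623, limma), with a 95% interval of -0.47 to 0.17. Its other probe set gave -0.10 (SE 0.149, adjusted p = 0.761, limma).

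Of the 4 genes that rose, Btg2 differed most among the Rab5 siRNA livers. Measured from the control siRNA mean, Cdkn1a stood at 2.61, 2.80, 2.62 and 2.49 in Rab5 siRNA replicates 1 to 4, Phlda3 at 0.98, 1.25, 1.27 and 0.89, and Perp at 0.47, 0.44, 0.51 and 0.60. At the brightest probe sets of these genes replicate 1 lay within the range of the others. At the other Cdkn1a probe set, 1421679_a_at, replicate 1 was highest, with 2.68 against 2.32 to 2.61. Btg2 stood at 0.64, 1.46, 1.68 and 1.88 at 1416250_at, with replicate 1 the lowest. Ccng1, which did not pass, had replicate 1 lowest as well, with -0.35, 0.48, 0.39 and 0.84 at 1420827_a_at. The order was the same at all 3 Ccng1 probe sets in that replicate 1 was lowest and replicate 4 highest, and at both Btg2 probe sets replicate 1 was lowest. The same replicate had the lowest Rab5a value of its group (6.28, against 6.91 to 7.16) but the highest Rab5c value (7.36, against 6.99 to 7.28). It also had the lowest score of 9 Kupffer cell and macrophage markers (0.16 above the control mean, against 0.76 to 0.85). Their part in these values was not tested.

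**Figure D3:**
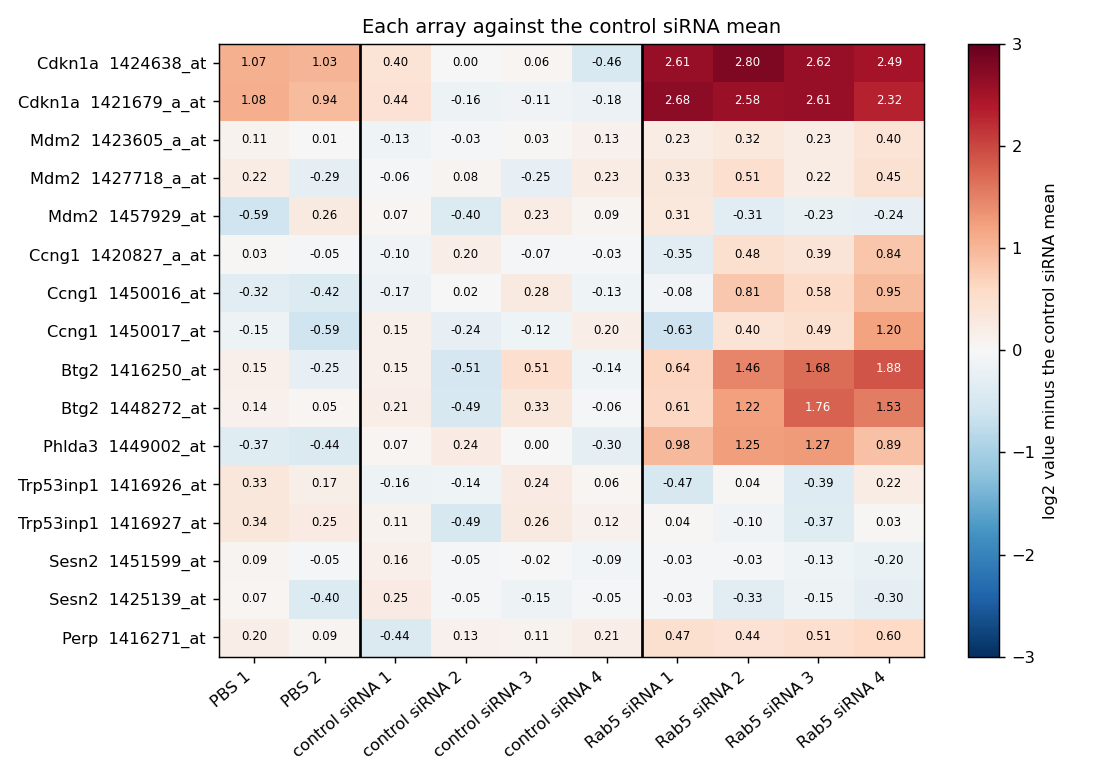
Log2 value of each array minus the control siRNA mean, for the 16 probe sets (rows) in the 10 arrays (columns); red is higher and blue lower than that mean. The 2 Cdkn1a rows are near 1 in PBS livers and between 2.32 and 2.80 in Rab5 siRNA livers, while Rab5 siRNA replicate 1 is below 0 in the 3 Ccng1 rows.

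The comparison of control siRNA with PBS shows what nanoparticles with a non-targeting RNA went along with. No member passed, and 0% of the 45037 probe sets did (0 by limma at an adjusted p under 0.05, 2081, or 4.62%, at an unadjusted p under 0.05, among them 3 of the 16). Cdkn1a was nevertheless lower with control siRNA than with PBS by 1.05 on the log2 scale (SE 0.180, adjusted p = 0.149, limma) at 1424638_at. At 1421679_a_at it was lower by 1.01 (SE 0.169, adjusted p = 0.134, limma), all 4 control livers lying below both PBS livers at either probe set. By p-value these probe sets ranked 11 and 9 of 45037. Without control siRNA replicate 1, the highest control, both probe sets passed, 1424638_at at -1.18 (adjusted p = 0.0449, limma). The groups did not overlap, with control siRNA lower, for 5.64% of all probe sets. Phlda3 went the other way, 0.41 higher with control siRNA (SE 0.156, adjusted p = 0.999, limma; unadjusted p = 0.0202), and 7.4% of all probe sets were higher without overlap. The remaining genes differed by -0.25 to 0.05 at their brightest probe sets. Ccng1 was higher with control siRNA by 0.37 (SE 0.222, adjusted p = 0.999, limma) at 1450016_at, all control livers lying above both PBS livers. At 1450017_at it was higher by 0.37 (SE 0.331). The dimmer probe sets of the other remaining genes differed by -0.29 to 0.16.

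Against PBS, Rab5 siRNA livers had 6 of 16 probe sets higher and 0 lower, where 4.26% of all probe sets rose and 3.57% fell (7.82% in all). The groups did not overlap for 8 of the 16 with Rab5 siRNA higher, against 13.5% of all probe sets, and for 1 with it lower, against 14.3%. The PBS group holds 2 arrays, and these values share arrays with both comparisons above, so they are set beside them and are no independent result. Cdkn1a was higher by 1.58 (SE 0.180, adjusted p = 5.24e-05, limma), 2.99-fold, which is less than the 6.19-fold difference from control siRNA. Phlda3 was higher by 1.50 (SE 0.156, adjusted p = 2.24e-05, limma), 2.83-fold, which is more than its 2.14-fold difference from control siRNA. Btg2 was higher by 1.46 (SE 0.298, adjusted p = 0.00568, limma). The Ccng1 probe set 1450016_at passed here with 0.94 (SE 0.222, adjusted p = 0.0156, limma). Perp, at 0.36 (SE 0.160, adjusted p = 0.236, limma), and Mdm2, at 0.23 (SE 0.118, adjusted p = 0.327, limma), did not. Without PBS replicate 2 the number of probe sets that passed was 3, and Btg2 at 1416250_at no longer passed (1.26, adjusted p = 0.104, limma).

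**Figure D4:**
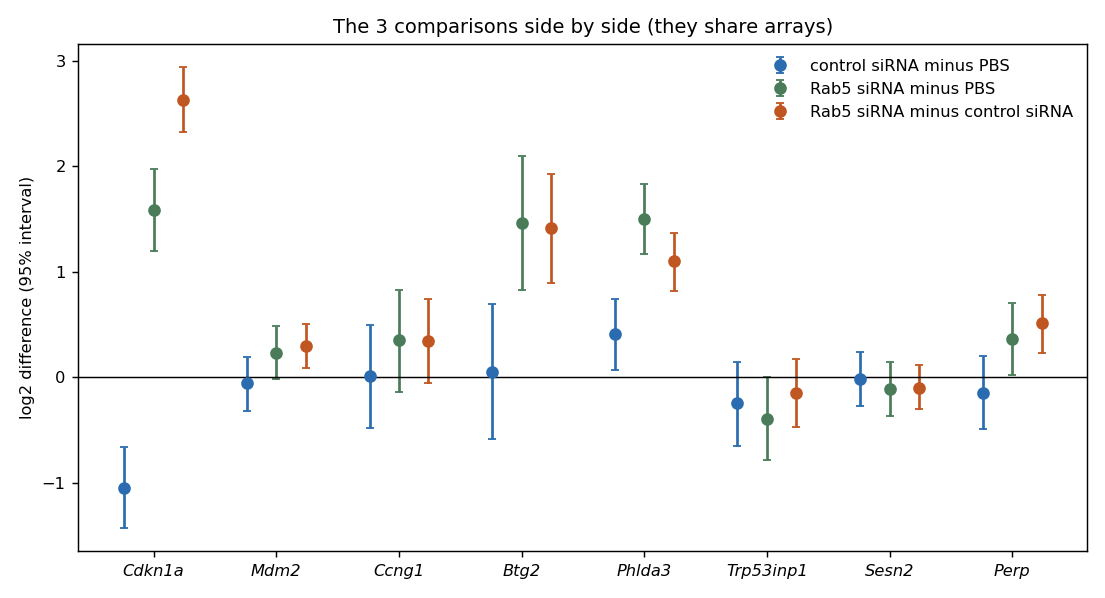
Log2 difference with its 95% interval (limma) for the 8 measured genes at the brightest probe set: control siRNA minus PBS (blue), Rab5 siRNA minus PBS (green) and Rab5 siRNA minus control siRNA (orange). Cdkn1a stands at -1.05, 1.58 and 2.63, and Phlda3 at 0.41, 1.50 and 1.10; the comparisons share arrays.

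A further 45 genes known as p53 targets were listed, of which 44 were measured, 1 probe set each. With Rab5 siRNA 10 rose, 4 fell and 30 did not pass, against 8.62% of all genes up and 6% down. The list's median difference was 0.06, near that of all genes (-0.02). The largest rises were those of Ddit4l, an inhibitor of mTORC1 (0.94, SE 0.131, adjusted p = 2e-04, limma), Apaf1, the core of the apoptosome (0.72, SE 0.122), the kinase Dyrk3 (0.68, SE 0.138) and Sertad1, a binding partner of Cdk4 (0.66, SE 0.133). Eda2r, a death receptor relative, was dim (3.53 with control siRNA and 4.13 with Rab5 siRNA), and its groups overlapped. It was at 0.61 (SE 0.181, adjusted p = 0.0443, limma) but lost its call in 10 of 17 alternative settings. Polk, a DNA polymerase that copies past lesions, rose by 0.55 (SE 0.120). The falls were those of Dcxr, a sugar and dicarbonyl reductase (-1.21, SE 0.155, adjusted p = 9.03e-05, limma), the extracellular sulfatase Sulf2 (-0.49, adjusted p = 0.0475, limma, lost in 12 of 19 settings), the thiamine transporter Slc19a2 (-0.44, lost in 1 of 19) and Tigar, which lowers glycolytic flux (-0.39, lost in 3 of 19). Apaf1 and Polk had 1 other probe set each, and Sulf2, Slc19a2 and Tigar 2 each, none of which passed. The 2 others of Ddit4l rose. Among the 30 that did not pass, only Bid had another probe set that did, as 1 of its 2 others fell. The number that rose was 5 without Rab5 siRNA replicate 2 and 6 without Rab5 siRNA replicate 3, and the number that fell was 2 without control siRNA replicate 3 and 2 without Rab5 siRNA replicate 3. Leaving out the arrays numbered 2 of all groups left 5 up and 1 down.

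Of 20 listed regulators and relatives of p53, 19 were measured, and 2 rose and 0 fell, where 8.62% of all genes rose and 6% fell. The gene of p53 itself, Trp53, had no probe set under that name alone in the annotation used and was not analysed here. The 2 that rose were the checkpoint kinases Chek1 (1.24, SE 0.187, adjusted p = 0.000393, limma), from 3.01 ± 0.172 to 4.25 ± 0.491 (SD, n = 4 each), and Chek2 (0.61, SE 0.125, adjusted p = 0.00483, limma). Chek1 was dim and had 4 other probe sets, none of which passed. These counts read 1 probe set per gene. Of the other probe sets, 1 of 6 for Usp7 and 1 of 2 for Atr fell, and 1 of 3 for Crebbp rose. Mdm4, the partner of Mdm2 in restraining p53, stood at 0.08 (adjusted p = 0.71, limma), and the damage kinase Atm at -0.09.

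**Figure D5:**
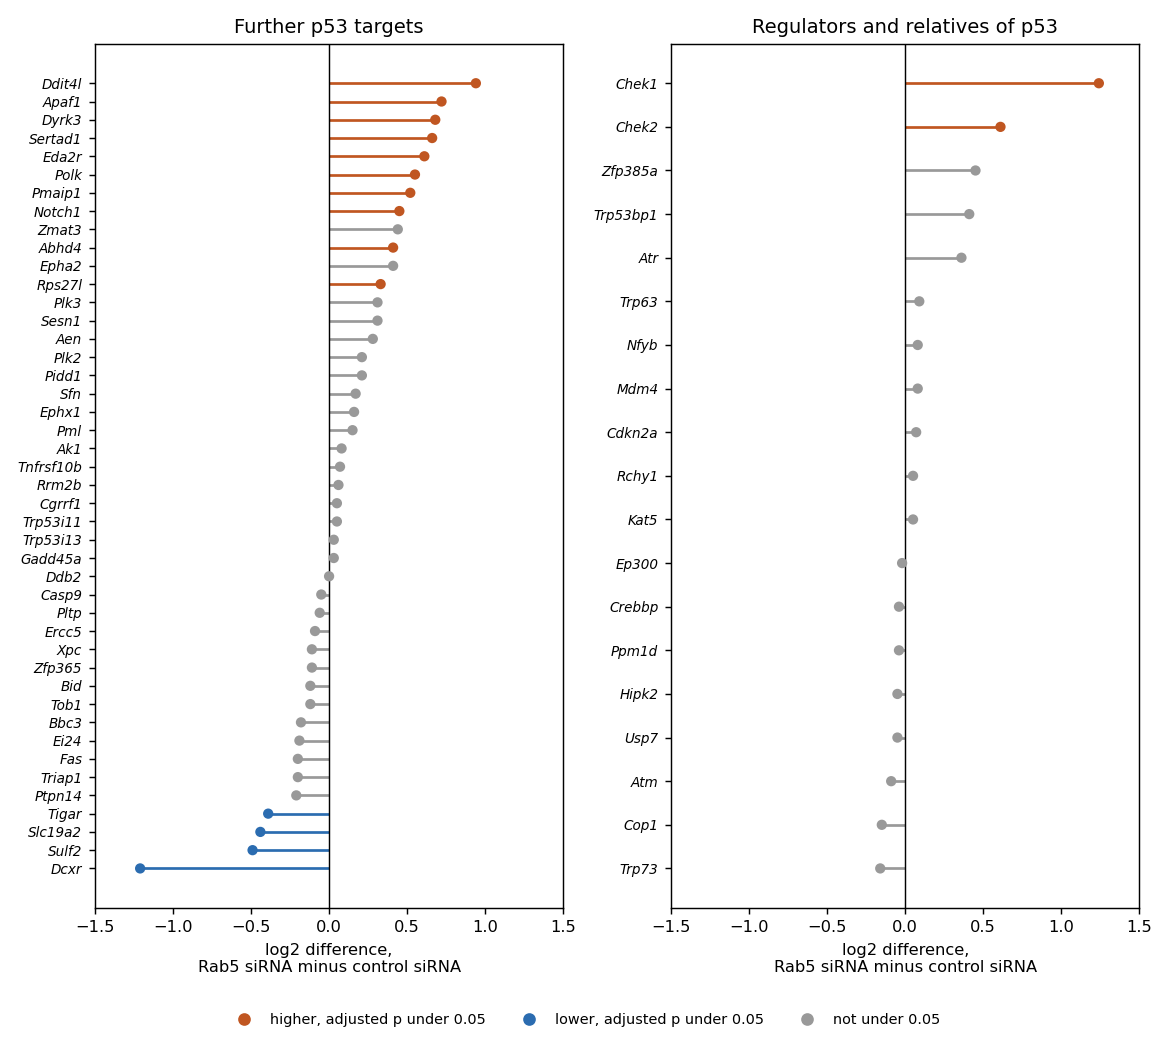
Log2 difference between Rab5 siRNA and control siRNA for the 44 measured further p53 targets (left) and the 19 measured regulators and relatives (right), 1 probe set per gene; orange and blue mark an adjusted p under 0.05. On the left 10 genes are orange and 4 blue, from Ddit4l at 0.94 to Dcxr at -1.21; on the right Chek1 and Chek2 are orange.

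Some partners of p21 in the cell cycle were higher in the same livers. Of 14 listed cyclins, kinases and related inhibitors, 13 were measured, and 5 rose, 0 fell and 8 did not pass, where 8.62% of all genes rose and 6% fell. Those that rose were Ccna2 (2.08, SE 0.181, adjusted p = 3.51e-06, limma), Cdk1 (1.80, SE 0.167), Ccnd1 (1.55, SE 0.125), the replication clamp Pcna (0.93, SE 0.151) and Cdk6 (0.41, SE 0.108, lost in 6 of 19 settings). The other probe sets of Ccna2 (1) and Ccnd1 (2) rose as well, and the 2 others of Cdk6 did not pass. Cdk4 did not pass at the probe set read for the list (0.31, adjusted p = 0.104, limma), but 1 of its 2 others rose. For Ccna2 and Cdk1 the control siRNA livers stood above PBS, by 1.23 and 1.07 on the log2 scale (adjusted p = 0.207 and adjusted p = 0.297, limma), where Cdkn1a stood below. The 8 that did not pass lay between -0.34 and 0.44 and included the other inhibitors of the p21 family, with Cdkn1b at 0.19 and Cdkn1c at -0.34. Without control siRNA replicate 2, 1 gene of this list fell.

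Sesn2 is also known as a target of the stress factor ATF4, and a list of 20 ATF4-linked genes was therefore set beside it. Of these 3 rose and 0 fell, where 8.62% of all genes rose and 6% fell, and the list median was 0.21. Those that rose were Atf3 (1.34, SE 0.233, adjusted p = 0.00124, limma), which is itself induced by many stresses, and the serine synthesis genes Psat1 (1.28, SE 0.148) and Psph (0.68, SE 0.147). Ddit3 stood at 0.01 and Trib3 at 0.24. Atf4 (0.47), Asns (0.77), Mthfd2 (0.25) and Phgdh (0) did not pass at the probe set read for the list. However, Atf4, Asns and Mthfd2 had 1 other probe set each that rose, and Phgdh had 2. No other probe set of the list fell. Without Rab5 siRNA replicate 2 the number that rose was 5, and 1 gene fell without control siRNA replicate 4 or without Rab5 siRNA replicate 1.

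The genes whose values over the 10 arrays were most like those of Cdkn1a at 1424638_at, by Pearson's r, were the tubulin Tubb2a (0.962), Nicn1 (0.958), the nuclear lamin Lmna (0.955), Fbxo6 (0.953) and the choline kinase Chka (0.952). The 10 points fall into 3 groups, so these values mostly describe the differences between groups. Like Cdkn1a, all 5 were lowest with control siRNA, with PBS between, by group means, which follows largely from choosing them by this likeness. Tubb2a was at 4.79, 5.13 and 6.73 in control siRNA, PBS and Rab5 siRNA livers, and Lmna at 7.59, 8.01 and 8.73. Among the members, r with Cdkn1a was 0.83 for Phlda3, 0.819 for Btg2, 0.781 for Mdm2, 0.704 for Perp, 0.457 for Ccng1, -0.324 for Trp53inp1 and -0.352 for Sesn2.

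Markers of the cell types of liver were read in the same arrays. With Rab5 siRNA against control siRNA, 8.62% of all genes rose and 6% fell. The 5 hepatocyte markers measured averaged between 10.38 and 14.06 in control siRNA livers, and 1 of them fell, Cyp2e1 with -0.95 (SE 0.142), while Alb was at 0.05. Of 9 Kupffer cell and macrophage markers 5 rose and 0 fell, with Marco at 1.09, Cd68 at 1.08, Cd5l at 1.01, Mpeg1 at 0.94 and Timd4 at 0.72. Vsig4 at 0.49, Clec4f at 0.3, Adgre1 at 0.25 and Csf1r at -0.13 did not pass, nor did the other Marco probe set. The mean of the 9 markers lay between -0.26 and 0.14 in control siRNA livers and between 0.16 and 0.85 in Rab5 siRNA livers, from the control mean. None of 7 stellate cell and fibroblast markers passed at the probe set read, though 1 of 3 others of Rgs5 rose. Of 6 endothelial markers 1 fell (Clec4g, -0.43), and of 4 cholangiocyte markers 1 rose (Sox9, 0.45). The other probe sets of Clec4g (1) and Sox9 (2) did not pass. Of 7 lymphocyte markers 1 fell (Ighm, -1.38), as did 2 of its 10 other probe sets. Of 4 monocyte and neutrophil markers 1 rose (Plac8, 0.79). No defining marker was at 0, since array values have no zero, and the part of these cells in the members' values was not tested.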

How the data were processed

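The authors deposited 1 log2 value per probe set and array; per the submitters' processing notes, Affymetrix Expression Console, RMA and Partek 6.6 were used, in an order not given in the sources used here. RMA equalises the arrays, so a general shift of all transcripts would not be seen. No detection calls were used: differences at values near or under the table median (4.33) may be understated. Precision is limited by how many arrays there were.

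The deposited log2 values were fitted as a mean per group in all 10 arrays with limma 3.58.1 (lmFit, eBayes) in R 4.3.3, for all 45037 probe sets other than 64 controls, with no filter, since the members are taken at every probe set. Calls are Benjamini-Hochberg adjusted p under 0.05, SEs are moderated and intervals are 95%. No 2 arrays held identical values. Names came from the platform annotation: 34945 probe sets had 1 symbol, 932 several and 9160 none. List genes are read at the probe set with the highest mean, matched by exact symbol. Named are the members, the Rab5 genes, up to 6 called genes per list and direction by size, Trp53, Mdm4 and the 5 genes most like Cdkn1a. Atm, Ddit3, Trib3, Atf4, Asns, Mthfd2, Phgdh, Cdkn1b, Cdkn1c and the cell type markers given by name were chosen after their values were seen. So were Usp7, Atr, Crebbp, Cdk4 and Bid. Members and lists were chosen with earlier results of these data known. In simulated data for Rab5 siRNA against control siRNA (45037 probe sets), limma recovered 28.4%, 91% and 100% of changes of 0.5, 1 and 2 on the log2 scale. These changes were put into only 67, 67 and 66 probe sets, all past the filter on low values. In the real comparison 4931 were called, which makes the adjusted threshold less strict, so these shares are not its sensitivity. Promoter windows and gene positions are from RefSeq (GRCm38.p6), with windows for 6 of the 8 measured members. Alternatives were the filter, 1 probe set per gene, the eBayes prior, array weights, quantile normalization and 2-group fits. Others were the replicate number as a block, with only numbers present in both groups kept, and leaving out each array. Leaving out the arrays numbered 1 of both siRNA groups or 2 of all groups was chosen after seeing the data.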

Additional observations from a re-analysis of the deposited data

Results flagged for a closer look

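In 3 of 32 groups of 4 arrays tested, 1 array stood apart from the other 3 by Dixon's criterion, which chance alone meets in about 1 in 20 groups. Control siRNA replicate 1 was high for Cdkn1a at 1421679_a_at, with 6.35 against 5.73 to 5.80 in the other controls. The same array was low for Perp at 1416271_at, with 8.83 against 9.38 to 9.48. Rab5 siRNA replicate 1 was high for the dim Mdm2 probe set 1457929_at, with 3.25 against 2.62 to 2.71.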

How the results depend on the processing

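For Rab5 siRNA against control siRNA, the number of member probe sets that rose was 5 to 9 across 18 alternative settings, around 6, and 0 fell in any. Cdkn1a, Btg2 and Phlda3 passed in each setting tried. The filter on low values and array weights brought 1450016_at of Ccng1 past the threshold (adjusted p = 0.0478 and 0.0168, limma), as leaving out control siRNA replicate 3 did (0.0473). Leaving out array 1 of each siRNA group let all 3 Ccng1 probe sets pass, 1420827_a_at at 0.54. The number of all probe sets called, 4931, was 2592 without the arrays numbered 2.

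For control siRNA against PBS, the fit with the replicate number as a block kept only numbers present in both groups. It thus used replicates 1 and 2 of each group and left out control siRNA replicates 3 and 4. In this comparison 2 Cdkn1a probe sets, of 1 gene, passed downwards without control siRNA replicate 1. They also passed without array 1 of each siRNA group (-1.18 at 1424638_at, adjusted p = 0.0347, limma) and with the block on these fewer arrays (-0.85, adjusted p = 0.0266, limma). The count of such probe sets was 0 to 2, and of genes 0 to 1, when 1 array was left out. Values near 0 changed sign without passing: Sesn2 to 0.02 with quantile normalization, 0.04 with the block, 0.05 without PBS replicate 1 and 0.01 without control siRNA replicate 4. Btg2 went to -0.13 with the block, -0.15 without PBS replicate 2 and -0.12 without control siRNA replicate 3. Ccng1 went to -0.03 without PBS replicate 2, -0.06 without control siRNA replicate 2 and -0.10 without the arrays numbered 2, and Perp to 0 without control siRNA replicate 1 or the arrays numbered 1. With 1 array left out at a time, these values ran from -0.09 to 0.05 for Sesn2, -0.15 to 0.25 for Btg2, -0.06 to 0.05 for Ccng1 and -0.22 to 0 for Perp. Of all probe sets, 0 were called here, 137 with the block and at most 20 in the other settings. For Rab5 siRNA against PBS, 3 to 8 probe sets rose when 1 array was left out, and 3 without the arrays numbered 2. Of all probe sets 3524 were called there, 1686 without PBS replicate 1, 1936 without PBS replicate 2 and 1229 without the arrays numbered 2.

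With the replicate number as a block, 1427718_a_at of Mdm2 (adjusted p = 0.0237, limma) and 1450016_at of Ccng1 (adjusted p = 0.0298, limma) also rose against control siRNA, as did 4 regulators of p53 in place of 2 and 5 ATF4-linked genes in place of 3. An ATF4-linked gene was called down with the block, with array weights and without array 1 of each siRNA group (1 in each). Arrays of the same number in the siRNA groups deviated together with r of 0.293, 0.0567, 0.125 and 0.223 over all probe sets, and 0.365, 0.116, 0.177 and 0.292 over those past the filter. Replicate 2 of the Rab5 siRNA group correlated better with control siRNA replicate 4 (0.12 over all probe sets) than with its own number, so the numbers were not taken to pair the samples. With 1 probe set per gene no count of probe sets exists. The cause of these dependences was not tested, and dim probe sets such as 1457929_at give no firm size at this signal.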
